A study of Mus musculus with 12 samples.

Results

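Trunk muscle progenitors of the mouse embryo were compared between embryonic day 9.5 (E9.5) and embryonic day 11.5 (E11.5). The samples were chosen by their titles: 2 arrays at each stage, 4 of the 12 arrays of the series. The other 8 arrays, trunk at E10.5 and head at all 3 stages, entered only the estimate of the spread between replicates. All groups came from ICR embryos that carry Myf5Cre and RosaYFP. In these embryos a cell that has expressed Myf5 becomes marked by yellow fluorescent protein and passes the mark to its daughters, and marked trunk cells were collected by flow cytometry. A sorted sample can therefore hold progenitors, differentiating muscle cells and any other descendants of a cell that once expressed Myf5. Whether the 2 arrays of a stage stand for separate embryos, litters or pools is not in the labels. The p-values therefore reflect only the spread among replicate arrays of the series, which for E9.5 and E11.5 may be technical.

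Trunk skeletal muscle arises from the somites, blocks of mesoderm beside the neural tube. Cells of the dermomyotome, the dorsal epithelial layer of the somite, carry Pax3 and later Pax7, enter the myotome beneath it or migrate into the limb buds, and pass through Myf5 and Myod1, which commit cells to muscle, to Myog, which drives terminal differentiation into contractile fibres. Somites form in order from head to tail, so each embryo holds somites of different maturity, and the older embryo holds more of the mature ones. Outside muscle, Myf5 is also known to have been expressed in the lineage of brown fat, of dorsal dermis and of some neural cells.

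The values were probe set signals from MAS5, in intensity units. Array medians ranged from 108.6 to 110.4. Across probe sets the 2 arrays of a stage correlated with Pearson r of 0.959 at E9.5 and 0.962 at E11.5, a description over genes, which are not independent. As a measure of RNA integrity, the log2 difference between the 3′ and 5′ control probe sets of Actb was 4.86 and 5.48 at E9.5 and 5.73 and 5.39 at E11.5. For Gapdh it was 5.84 and 5.34, then 5.30 and 5.76. The lowest Actb value belonged to E9.5 replicate 1, and the Gapdh values overlapped. The X-inactivation transcript Xist read 82.6 and 163 on the replicate 1 arrays of trunk and head at E10.5. The other 10 arrays read 3790 to 8801, among them the E10.5 replicate 2 arrays of trunk (4132) and head (5006). The 2 arrays of an E10.5 group were therefore not repeats of 1 RNA sample. The replicate 1 arrays at E10.5 entered only the estimate of spread, and without both of them 862 genes passed the test below in place of 1038. Of the genes that define the labelled cell type, Myf5 and the somite genes Pax3 and Meox1 lay far above the median probe set on all 4 arrays. Others did not: Myod1 lay below it on both E9.5 arrays, Pax7 on E9.5 replicate 1 and Met on all 4.

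The genes that were higher at E11.5 included many of differentiating muscle, connective tissue, the insulin-like growth factor axis and neurons, and those that were lower included genes of the early embryo, epithelium, ribosome assembly and glycolysis. Of 7722 genes tested with limma (Benjamini-Hochberg adjusted p below 0.05), 1038 passed, a background share of 13.4%. At E11.5 674 of them were higher (8.73%) and 364 lower (4.71%). The 2 arrays of one stage lay beyond both arrays of the other for all 1038, and for 56.2% of all genes tested. The median log2 difference of all genes was −0.01, with quartiles of −0.29 and 0.30. Differences of at least 1 on the log2 scale were found for 481 of the higher genes and 152 of the lower ones. In the text, log2 values are E11.5 minus E9.5 with their standard error from the fit, and signals are given as replicate 1 then replicate 2. Signals below an array's median probe set hold little information. Where an array of the dimmer stage lay there, its signal was raised to that median and the fold is given as "at least", and no fold is given where both stages lay there. In bulk samples fewer cells of a type and less RNA per cell cannot be told apart. The counts depend on single arrays: 434 genes passed without trunk E9.5 replicate 1, 762 without trunk E9.5 replicate 2, 581 without trunk E11.5 replicate 1 and 460 without trunk E11.5 replicate 2. With 1 array of a stage left out, the remaining one was assumed to vary like the other groups.

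**Figure D1:**
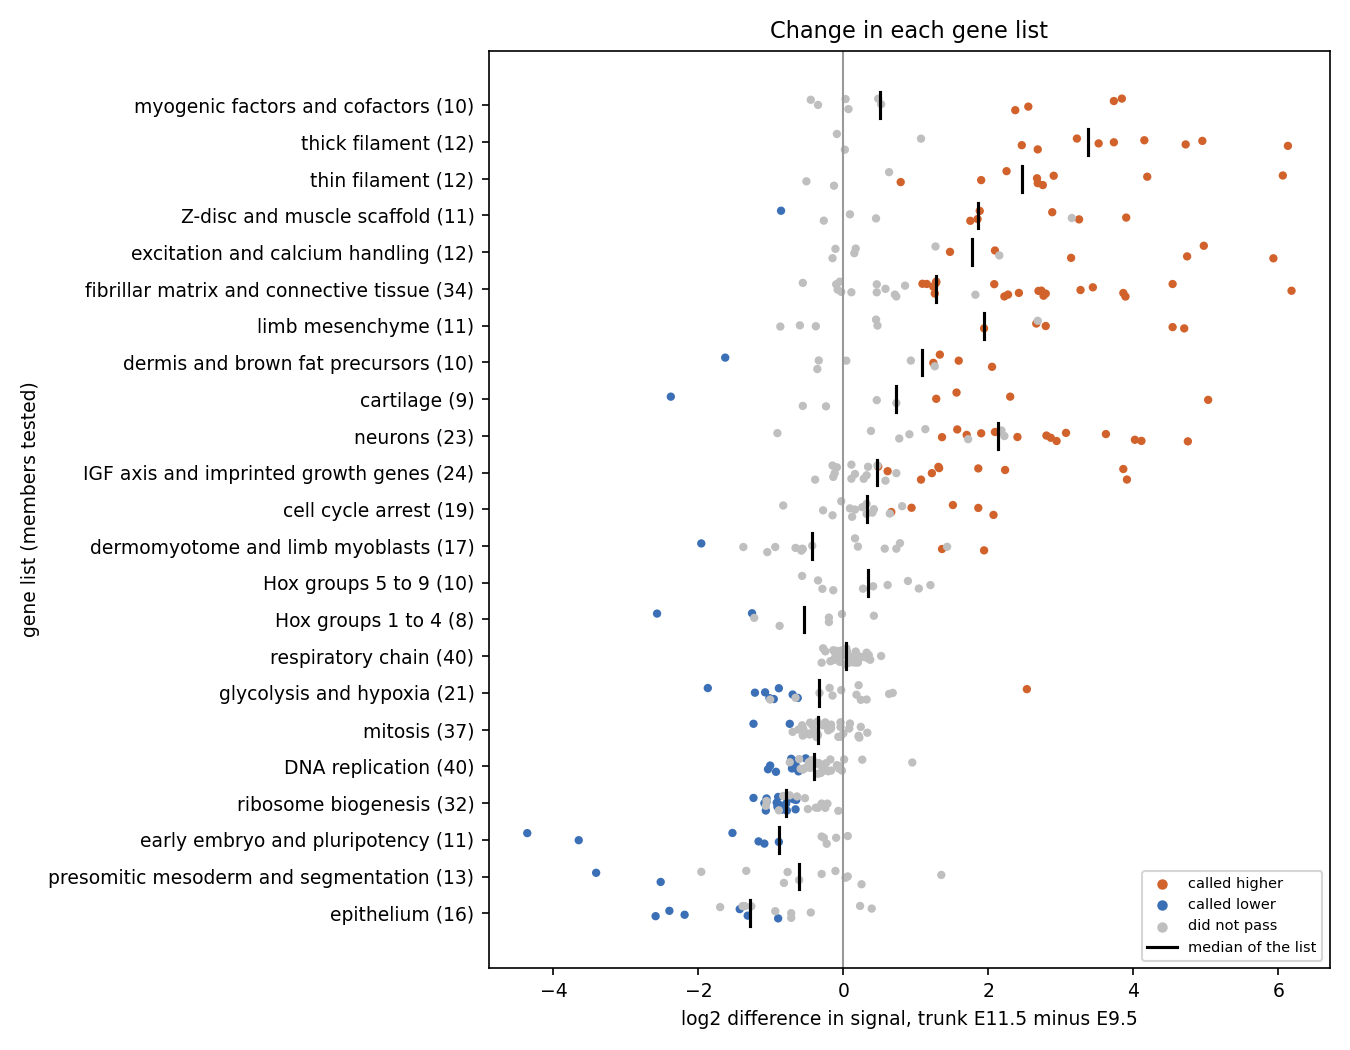
Log2 difference in signal, E11.5 minus E9.5 (horizontal axis), for each tested member of 23 gene lists (rows, number tested in brackets). Each point is a gene, orange where called higher, blue where called lower and grey where the test was not passed; black bars are list medians. The muscle, matrix, limb mesenchyme and neuron lists lie to the right, with medians up to 3.37 for the thick filament, and the epithelium list lies to the left with a median of −1.29.

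Among the myogenic factors and their cofactors, 4 of 10 tested genes rose and none fell, with a list median of 0.50. Myod1 read 70.1 and 73.5 at E9.5 and 1198 and 879 at E11.5, a difference of log2 3.84 ± 0.30 (adjusted p = 1.34e-05, at least 9.39-fold). Both early arrays lay below the median probe set and both later ones far above it. Myog read 112 and 243 against 825 and 1127 (log2 2.55 ± 0.36, adjusted p = 0.000733, 5.84-fold). Mef2c, the MADS-box partner of the myogenic factors, read 214 and 442 against 1693 and 1485 (2.37 ± 0.29, adjusted p = 0.000337, 5.16-fold). Msc, the basic helix-loop-helix factor also called MyoR, read 45.0 and 71.5 against 914 and 619 (3.73 ± 0.31, adjusted p = 1.91e-05, at least 6.88-fold). For these 4 genes no array of one stage overlapped the other stage, and each kept its call under every alternative and array omission run. Myf5, whose locus drives the Cre, read 999 and 1305 against 1078 and 1261, and its arrays overlapped (0.03 ± 0.21, adjusted p = 0.953). Mef2a (0.52, adjusted p = 0.156), Mef2d (0.48, adjusted p = 0.15) and the E-protein gene Tcf12 (0.07, adjusted p = 0.67) did not pass. Nor did the homeobox gene Six4 (−0.35, adjusted p = 0.293).

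In the thick filament list 9 of 12 tested genes were higher and none lower (median 3.37), and in the thin filament list 9 of 12 and none (median 2.46). In the lists for the Z-disc and its scaffold, 6 of 11 were higher and 1 lower (median 1.85), and for excitation and calcium handling 6 of 12 and none (median 1.78). Embryonic myosin heavy chain Myh3 read 7.47 and 288 at E9.5 and 4519 and 2317 at E11.5 (log2 6.13 ± 1.14, adjusted p = 0.00431, at least 18.3-fold). Titin, the giant spring of the sarcomere (Ttn), read 65.7 and 223 against 2256 and 2034 (4.15 ± 0.46, adjusted p = 0.000174, at least 13.8-fold). Cardiac actin Actc1, which embryonic skeletal muscle also uses, read 629 and 1953 against 8272 and 6686 (2.75 ± 0.41, adjusted p = 0.00105, 6.71-fold). In each of these genes E9.5 replicate 2 was the higher of the early arrays and E11.5 replicate 1 the higher of the later ones, and the stages did not overlap. Slow troponin T, Tnnt1, read 12.2 and 26.6 against 1242 and 1158 (6.06 ± 0.71, adjusted p = 0.000223, at least 11-fold), so that both early arrays were far below the median probe set. Of the other actins, the smooth muscle form Acta2 rose 3.72-fold (1110 and 1478 against 3611 and 6300) and the skeletal form Acta1 by at least 5.62-fold (84.1 and 281 against 1248 and 772). Among the tropomyosins, Tpm2 rose 1.73-fold (0.79 ± 0.19, adjusted p = 0.0176), while Tpm1 (0.63, adjusted p = 0.117) and Tpm3 (−0.13, adjusted p = 0.489) did not pass. Tpm2 did not pass without probe sets suffixed _s, _x or _a, which can read related transcripts.

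Other myosin heavy chain genes and genes of the muscle membrane were among the higher ones. Perinatal myosin Myh8 read 13.8 and 5.27 against 446 and 156 (log2 4.95 ± 0.68, at least 2.41-fold), and slow myosin Myh7 35.9 and 40.8 against 816 and 314 (3.73 ± 0.50, at least 4.63-fold). Adult fast myosin Myh1 read 11.5 and 15.3 against 177 and 131 (3.52 ± 0.50, at least 1.39-fold). Early signals of all 3 lay below the median probe set, so the log2 values exceed what the bounds support. At the membrane, the calcium release channel Ryr1 read 3.05 and 3.19 against 270 and 135 (5.93 ± 0.78, at least 1.75-fold). The acetylcholine receptor subunits Chrna1 (13.9 and 4.07 against 311 and 180, at least 2.16-fold) and Chrnb1 (5.62 and 9.44 against 200 and 191, at least 1.78-fold) rose as well. The fetal subunit Chrng rose by at least 1.16-fold (adjusted p = 0.0129) and lost its call without E9.5 replicate 2 or without either E11.5 array. Raising all signals to the array median before the test ended the calls of Myh8, Myh1, Ryr1 and Chrng. The sarcoplasmic pump Atp2a2 (5866 and 7973 against 6435 and 6243, adjusted p = 0.674) and the membrane scaffold gene Dmd (0.09, adjusted p = 0.854) did not pass. The 1 lower scaffold gene was the LIM-domain gene Fhl1, at 4784 and 4261 against 2522 and 2450 (−0.86 ± 0.15, adjusted p = 0.00236, 1.82-fold). The muscle forms of metabolic enzymes were not among the calls: none of 4 tested passed in limma and 1 had an unadjusted p below 0.05, enolase 3, Eno3, at −0.65 (adjusted p = 0.0934).

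Over the 5 lists of muscle factors and muscle structure and the muscle metabolism list, 34 of 61 tested genes were higher and 1 lower, with a median of 1.90, beside the 8.73% and 4.71% of all genes. Of the 34, 5 had a measured fold, 25 a bound and 4 none. The filter for tested genes asked for a signal above the array median on at least 2 of 12 arrays. A gene could therefore be tested through the stage where it was high. Of the 4 trunk arrays, Ryr1, Chrna1, Chrnb1 and Myh8 lay above the median only at E11.5. List members that did not pass the filter are in neither the count nor the median. E9.5 replicate 2 exceeded replicate 1 in 28 of the 34 and E11.5 replicate 1 exceeded replicate 2 in 31, against 439 and 334 of the 674 higher genes. The counts fell without single arrays. The thick filament count was 5 without E9.5 replicate 1 and 5 without E11.5 replicate 1, and the thin filament count 4 in both cases. For the Z-disc list it was 2 and 1, and for excitation 3 without E11.5 replicate 1. Acta1 and Tpm2 were among the genes that lost their calls in both cases (adjusted p up to 0.0567 for Acta1 and 0.161 for Tpm2). Of the muscle genes named above, Myh3 and Tpm2 did not pass with only the 4 trunk arrays in the fit.

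**Figure D2:**
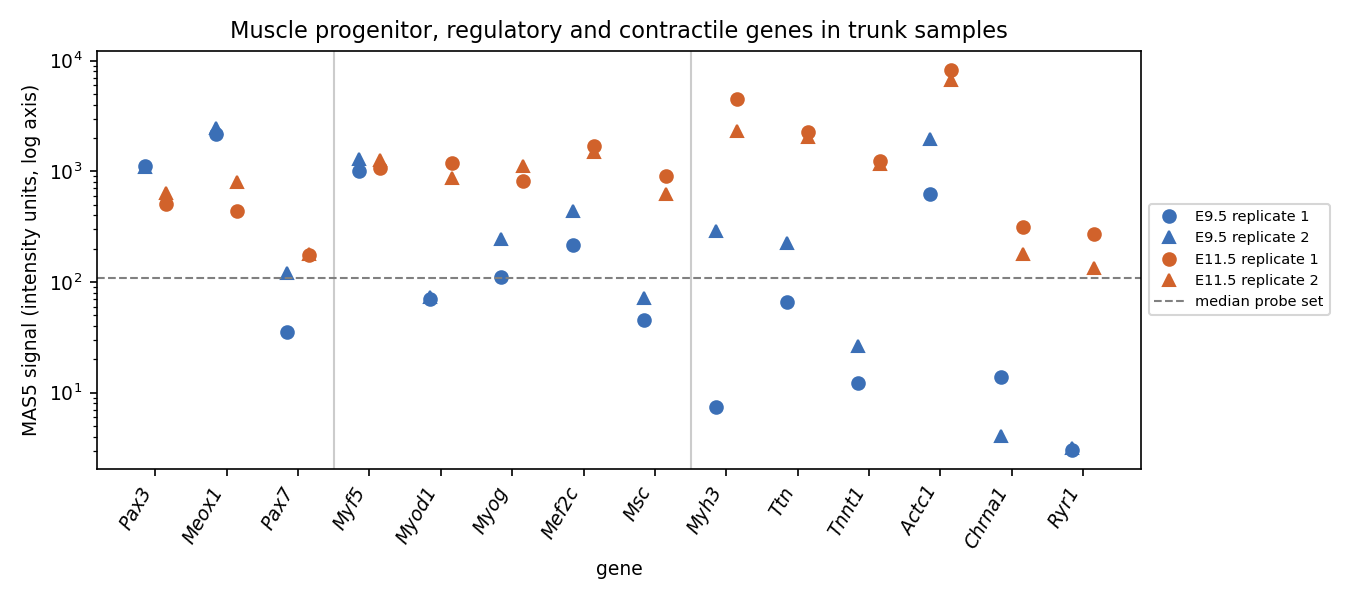
MAS5 signal (vertical log axis, intensity units) of 14 genes in each trunk array: blue for E9.5 and orange for E11.5, circles for replicate 1 and triangles for replicate 2; the dashed line is the median probe set. Of the progenitor genes (left), Pax3 and Meox1 lie lower at E11.5 and Pax7 lies higher, though Pax3 and Pax7 did not pass the test. Myf5 is level, and Myod1 and the contractile genes (right) are higher at E11.5. Myod1, Tnnt1, Chrna1 and Ryr1 rise from below the dashed line on both early arrays and Actc1 from 629 and 1953, above it.

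The windows around the start sites of 5 of these genes are printed because the muscle genes moved together and their myogenic factors bind short E-box sequences. Each window runs from 250 bases before to 50 after the RefSeq start (GRCm38.p6), 5′ to 3′ on the gene's strand. Capitals mark every match to CANNTG, the general E-box, of which CAGCTG is one form, and to a MEF2-type motif, CTA and TAG with any 4 bases between them. All 3 motifs read the same on both strands. Chrnb1 (chr11:69795888-69796187, minus strand) and Ttn (chr2:76982498-76982797, minus) had the smallest p among the higher muscle genes with a single window. Acta2 (chr19:34255324-34255623, minus) and Chrna1 (chr2:73580289-73580588, minus) had the smallest p among those whose window holds CAGCTG. Myog (chr1:134289754-134290053, plus) is shown for its role.
Chrnb1: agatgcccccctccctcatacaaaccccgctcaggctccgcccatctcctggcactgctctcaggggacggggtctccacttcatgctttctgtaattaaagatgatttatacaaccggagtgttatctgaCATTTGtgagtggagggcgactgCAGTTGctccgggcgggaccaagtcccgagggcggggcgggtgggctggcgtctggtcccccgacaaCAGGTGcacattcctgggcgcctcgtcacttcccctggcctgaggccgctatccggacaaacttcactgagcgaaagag
Ttn: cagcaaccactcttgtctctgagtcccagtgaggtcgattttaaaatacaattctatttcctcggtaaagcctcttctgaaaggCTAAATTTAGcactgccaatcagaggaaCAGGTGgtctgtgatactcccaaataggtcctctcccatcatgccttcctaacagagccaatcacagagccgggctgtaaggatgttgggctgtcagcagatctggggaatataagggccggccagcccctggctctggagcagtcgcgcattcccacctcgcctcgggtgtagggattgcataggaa
Acta2: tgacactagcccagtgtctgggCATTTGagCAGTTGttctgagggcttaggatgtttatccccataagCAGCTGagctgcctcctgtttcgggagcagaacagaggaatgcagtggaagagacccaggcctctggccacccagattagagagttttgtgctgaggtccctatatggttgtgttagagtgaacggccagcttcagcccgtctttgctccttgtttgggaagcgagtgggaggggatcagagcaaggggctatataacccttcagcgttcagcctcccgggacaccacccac
Chrna1: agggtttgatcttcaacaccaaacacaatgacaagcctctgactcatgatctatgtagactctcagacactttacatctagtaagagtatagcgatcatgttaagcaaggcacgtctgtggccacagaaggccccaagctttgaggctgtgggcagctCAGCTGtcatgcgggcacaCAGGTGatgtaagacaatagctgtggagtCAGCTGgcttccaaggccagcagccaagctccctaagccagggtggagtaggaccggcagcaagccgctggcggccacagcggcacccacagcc
Myog: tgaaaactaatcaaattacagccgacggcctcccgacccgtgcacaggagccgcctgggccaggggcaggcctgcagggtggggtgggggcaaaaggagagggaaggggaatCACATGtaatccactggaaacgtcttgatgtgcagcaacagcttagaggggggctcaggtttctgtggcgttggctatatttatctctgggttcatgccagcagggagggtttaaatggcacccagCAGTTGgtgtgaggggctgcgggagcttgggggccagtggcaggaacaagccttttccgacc
By these letters the Chrnb1 window holds 3 E-boxes, the Ttn window 1 E-box and 1 MEF2-type match, the Acta2 window 3 E-boxes with 1 CAGCTG, the Chrna1 window 3 with 2 CAGCTG, and the Myog window 2. Windows were found for 29 of the 34 higher muscle genes (34 windows), and 85.3% of them held CANNTG, 38.2% CAGCTG and 5.88% the MEF2-type motif. Over all tested genes with a window (8194 windows) the shares were 62.4%, 14.5% and 3.05%, and over the whole table of 32851 windows 72.3%, 16.3% and 3.69%. For the higher genes of the fibrillar matrix list (19 windows) they were 47.4%, 15.8% and 5.26%. These are matches of letters and no evidence of binding.

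In the dermomyotome and limb myoblast list 2 of 17 tested genes were higher and 1 lower (median −0.43), a called share of 17.6% beside 13.4% of all genes. Meox1, a homeobox gene of the forming somite, read 2155 and 2465 at E9.5 and 435 and 805 at E11.5 (log2 −1.96 ± 0.33, adjusted p = 0.00224, 3.89-fold lower). Pax3 read 1118 and 1083 against 512 and 639 (−0.94 ± 0.33, adjusted p = 0.0865) and Pax7 35.7 and 120 against 175 and 179 (1.43 ± 0.59, adjusted p = 0.141). For both of them the stages did not overlap, but the differences did not pass the test. The receptor gene Met, which migrating myoblasts need, read 73.4 and 97.7 against 89.3 and 32.3 and overlapped (−0.66, adjusted p = 0.486). Its partner in limb migration Lbx1 (−0.58, adjusted p = 0.623) and the dermomyotome genes Sim1 (0.20, adjusted p = 0.803), Tcf15 (−1.05, adjusted p = 0.12) and Dmrt2 (−1.38, adjusted p = 0.143) did not pass either. The higher genes were the T-box gene Tbx3 (at least 3.61-fold, adjusted p = 0.00303) and Fgfr4, an FGF receptor of myoblasts, at 132 and 132 against 337 and 337 (1.36 ± 0.41, adjusted p = 0.0488). Fgfr4 passed narrowly and lost its call under 17 of 26 alternatives, among them the omission of any trunk array.

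Adhesion genes of myoblasts included a pair of large opposite changes. The adhesion receptor Vcam1 read 13.7 and 52.8 against 1091 and 954 (log2 5.25 ± 0.54, adjusted p = 0.000106, at least 9.33-fold). The laminin chain Lama2 of the mature muscle basement membrane read 36.2 and 26.2 against 400 and 362 (3.63 ± 0.31, adjusted p = 2.86e-05, at least 3.48-fold). In both genes the early arrays lay below the median probe set and the later arrays above it. The laminin-binding integrin chain Itga6, which the early myotome uses, went the other way, from 1939 and 2067 to 685 and 380 (−1.97 ± 0.28, adjusted p = 0.000768, 3.92-fold lower). In all, 4 of 16 tested adhesion genes were higher and 1 lower (median 0.26). The other 2 higher genes were Lama4 (at least 2.98-fold) and the mesenchymal cadherin Cdh11 (1.64-fold), and both lost their calls without E9.5 replicate 1 or without E11.5 replicate 1. Muscle cadherin Cdh15 was at 0.96 (adjusted p = 0.0553) and the integrin chain Itga4, a receptor for Vcam1, at 1.53 (adjusted p = 0.26).

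Of 11 tested genes of pluripotency and the early embryo 6 fell and none rose (median −0.89). The zinc finger gene Sall4 read 3360 and 2389 at E9.5 and 235 and 217 at E11.5 (log2 −3.65 ± 0.26, adjusted p = 8.06e-06, 12.5-fold lower). The RNA-binding protein gene Lin28a, which blocks let-7 maturation, read 531 and 436 against 27.6 and 20.0 (−4.36 ± 0.58, adjusted p = 0.000527, at least 4.39-fold lower). Both genes kept their calls under every alternative run, and no array of one stage overlapped the other. The DNA methyltransferase gene Dnmt3b fell 2.26-fold, the RNA-binding protein gene Igf2bp1 2.13-fold, Sox2 1.85-fold and Arid3b by at least 2.20-fold. Sox2 lost its call without any single one of the 4 arrays compared. The let-7 target Hmga2 stayed high, at 9459 and 10242 against 10798 and 9786 (0.06 ± 0.08, adjusted p = 0.7). Without E9.5 replicate 1 the count was 2 and without E11.5 replicate 1 it was 3.

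In the list for presomitic mesoderm and segmentation 2 of 13 tested genes were lower and none higher (median −0.61). This was a called share of 15.4% beside 13.4% of all genes, and 1 gene was lower without E9.5 replicate 2. Nkx1-2, a homeobox gene of the tail-end progenitors, read 329 and 292 against 26.0 and 32.7 (log2 −3.41 ± 0.52, adjusted p = 0.00123, at least 2.83-fold lower). Cdx2, a caudal homeobox gene, read 133 and 232 against 36.5 and 25.5 (−2.52 ± 0.59, adjusted p = 0.0144, at least 1.60-fold lower), and lost its call without E9.5 replicate 2 or E11.5 replicate 2. Both genes were above the median probe set only at E9.5. The Notch ligand gene Dll1, active in segmentation, was at −0.61 (adjusted p = 0.177) and the retinoic acid enzyme gene Aldh1a2 fell short of the test as well (3553 and 1950 against 550 and 838, −1.96 ± 0.77, adjusted p = 0.126). Of the 8 tested Hox genes of paralog groups 1 to 4, Hoxb1 (295 and 273 against 42.7 and 53.2, at least 2.59-fold) and Hoxd1 (2.39-fold) were lower and none higher (median −0.54). Hoxd1 lost its call without E9.5 replicate 2 or E11.5 replicate 2. None of the 10 tested Hox genes of groups 5 to 9 passed in limma, and 0 had an unadjusted p below 0.05, with a median of 0.34 and differences from −0.57 (Hoxd9) to 1.20 (Hoxa7).

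In the list of the insulin-like growth factor axis and of imprinted growth genes 10 of 24 tested genes rose and none fell (median 0.47). Igf1 read 347 and 303 at E9.5 and 5462 and 4345 at E11.5 (log2 3.91 ± 0.23, adjusted p = 1.9e-06, 15-fold). The fetal growth factor Igf2 read 2798 and 3049 against 7002 and 7449 (1.31 ± 0.14, adjusted p = 0.000167, 2.47-fold). Among their binding proteins, Igfbp3 rose 4.70-fold, Igfbp2 2.33-fold and Igfbp5 2.10-fold. Igf1, Igf2 and these binding proteins kept their calls under every alternative run. The receptor genes Igf1r (0.47, adjusted p = 0.542) and Igf2r (0.16, adjusted p = 0.612) did not pass. Imprinted Plagl1 rose 2.50-fold, Meg3 1.52-fold and Ndn 1.39-fold, while Grb10 (0.11, adjusted p = 0.42), Mest (−0.09, adjusted p = 0.641) and Dlk1 (0.11, adjusted p = 0.894) did not pass. Meg3 and Ndn lost their calls when probe sets with suffixes were left out and without an intensity trend. They also lost them without E9.5 replicate 1 or without E11.5 replicate 2. Meg3 lost its call with the mean over probe sets and without E11.5 replicate 1 too. Over all alternatives the adjusted p in limma reached 0.608 for Meg3 and 0.129 for Ndn.

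In the list for cell cycle arrest 5 of 19 tested genes rose and none fell (median 0.32), and replication genes moved the other way. The called share of the arrest list was 26.3%, beside 13.4% of all genes. The arrest list also holds the D cyclins Ccnd1, Ccnd2 and Ccnd3, which do not inhibit the cycle. Cdkn1c, an imprinted inhibitor of cyclin-dependent kinases that differentiating muscle uses, read 2397 and 3704 against 11528 and 10082 (log2 1.86 ± 0.17, adjusted p = 4.92e-05, 3.62-fold). Its relative Cdkn1a read 177 and 531 against 1349 and 1225 (2.07 ± 0.40, adjusted p = 0.00538, 4.19-fold). The stages did not overlap in either gene. Trp53inp1 (2.85-fold), the D cyclin Ccnd3 (1.92-fold) and the retinoblastoma gene Rb1 (1.58-fold) also rose, and all 3 lost their calls without E9.5 replicate 1 or without E11.5 replicate 2. Of 40 tested DNA replication genes 10 were lower and none higher (median −0.40), the origin factors Orc1 (2.06-fold) and Cdc6 (2.02-fold) most. The reductase subunit Rrm2 read 10911 and 10001 against 7557 and 7017 (−0.52 ± 0.08, adjusted p = 0.00136, 1.43-fold lower). The replication count was 3 to 6 without 1 of the 4 trunk arrays. Among 37 mitosis genes only Plk1 (2.35-fold lower) and Mad2l1 (1.67-fold lower) passed (median −0.35), and both lost their calls without E9.5 replicate 1 or E11.5 replicate 2. The share of mitosis genes called lower was 5.41%, near the 4.71% of all genes. The proliferation marker Mki67 read 5148 and 5799 against 5330 and 6348 (0.09, adjusted p = 0.833).

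In the fibrillar matrix and connective tissue list 21 of 34 tested genes rose and none fell (median 1.28), with 18 to 21 when single arrays were left out. Periostin, Postn, a matrix protein of mesenchyme, read 179 and 189 against 2250 and 1767 (log2 3.44 ± 0.24, adjusted p = 7.58e-06, 10.8-fold). The small proteoglycan decorin, Dcn, read 65.9 and 52.0 against 828 and 875 (3.86 ± 0.43, adjusted p = 0.00017, at least 7.79-fold). Its relative Ogn read 8.07 and 4.78 against 379 and 538 (6.18 ± 0.57, adjusted p = 4.59e-05, at least 4.13-fold). Each of these genes had both later arrays well above both early ones. Tenascin C, Tnc, rose by at least 4.22-fold, lumican, Lum, 6.79-fold, and the collagen VI chains Col6a3, Col6a2 and Col6a1 by at least 8.76-fold, 6.90-fold and 2.18-fold. Fibrillar collagens, which had high early signals, rose by smaller folds: Col3a1 read 2575 and 4142 against 8477 and 7397 (2.42-fold), Col5a2 rose 2.42-fold and Col1a2 2.43-fold, and Col1a1 did not pass (0.85, adjusted p = 0.204). Fibronectin, Fn1, was at 0.46 (adjusted p = 0.0987) and the mesenchymal receptor gene Pdgfra at 0.58 (adjusted p = 0.204). Col3a1 lost its call without E9.5 replicate 1 and Col1a2 without any single one of the 4 trunk arrays. Col6a1 lost its call when signals were raised to the array median.

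**Figure D3:**
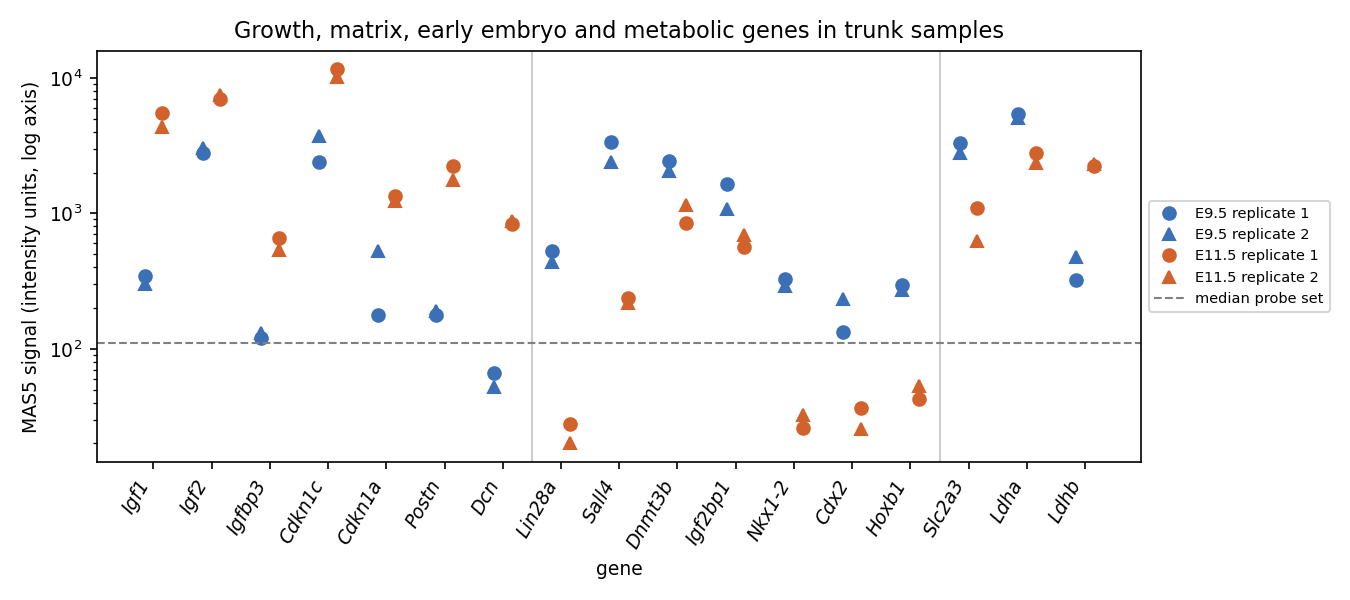
MAS5 signal (vertical log axis, intensity units) of 17 genes in each trunk array, with colours, symbols and dashed line for E9.5, E11.5, replicates and the median probe set as named in the legend. Growth and matrix genes (left) are higher at E11.5, Igf1 at 5462 and 4345 against 347 and 303; early embryo genes (middle) are lower, Sall4 at 235 and 217 against 3360 and 2389; Slc2a3 and Ldha (right) are lower and Ldhb higher.

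Of 11 tested limb mesenchyme genes 5 rose and none fell (median 1.94). The homeobox gene Prrx1 read 322 and 477 against 2623 and 2342 (log2 2.66 ± 0.27, adjusted p = 0.000106, 6.32-fold). The T-box genes Tbx15 (43.1 and 28.3 against 1034 and 637, at least 7.42-fold) and Tbx2 (4.67 and 46.2 against 421 and 344, at least 3.48-fold) rose from below the median probe set. Tbx3, given above, and Lhx2 were the other 2. Lhx2 read 3.07 and 2.98 against 21.3 and 20.6, below the median probe set throughout, and lost its call without any single one of these 4 arrays. Of 10 genes of dermis and brown fat precursors 4 rose and 1 fell (median 1.08). The helix-loop-helix genes Ebf2 (641 and 505 against 2361 and 2335, 4.13-fold), Ebf1 (3.02-fold), Ebf3 (2.52-fold) and Twist2 (2.36-fold) were higher, and the retinoic acid binding protein gene Crabp2 was 3.10-fold lower. Ebf1 lost its call when probe sets with suffixes were left out, Twist2 without replicate 2 of either stage, and Crabp2 without E9.5 replicate 1 or E11.5 replicate 2. In the cartilage list 4 of 9 were higher and 1 lower (median 0.73): the collagens Col9a3 (at least 1.17-fold), Col11a1 (4.92-fold), Col2a1 (2.96-fold) and Col9a1 (2.43-fold) rose, and the link protein gene Hapln1 fell by at least 3.38-fold. The cartilage regulator Sox9 did not pass (−0.24, adjusted p = 0.755), and the count of higher genes was 0 without E9.5 replicate 1 and 2 without either E11.5 array. Of 7 genes of sclerotome and tendon, Foxc2 was lower (2.47-fold, adjusted p = 0.0249) and none higher (median −0.76). This was a called share of 14.3% beside 13.4% of all genes. Foxc2 lost its call without E9.5 replicate 2 or E11.5 replicate 2.

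Among the signalling pathways, ligands, antagonists and receptors went both ways. In the BMP and TGF-beta pathway 7 of 26 tested genes were higher and 2 lower (median 0.41). The ligand gene Tgfb2 read 486 and 535 against 3356 and 2862 (log2 2.60 ± 0.20, adjusted p = 1.2e-05, 6.08-fold), and the matrix protein gene Tgfbi, a TGF-beta target, rose 5.92-fold. Follistatin, Fst, which binds activin and myostatin, went down from 914 and 1546 to 157 and 174 (−2.84 ± 0.41, adjusted p = 0.000936, 7.17-fold lower). Wfikkn1, another secreted binder of these ligands but not a member of this list, fell as well (166 and 240 against 3.14 and 3.02, at least 1.82-fold lower). The stages did not overlap in any of these 4 genes. Bmp4 rose by at least 3.06-fold, the receptor gene Tgfbr2 2.44-fold, Bmp7 2.20-fold, Bmp2 2.10-fold and Bmpr2 1.76-fold, and the activin receptor gene Acvr2b fell 2.01-fold. Bmp2 lost its call under 8 of 25 alternatives, among them the omission of any of the 4 arrays compared. Bmp4 and Bmp7 lost theirs without E9.5 replicate 1 or E11.5 replicate 2, and Bmp7 also without E11.5 replicate 1. The count of higher genes was 4 without E9.5 replicate 1 or E11.5 replicate 2, Bmpr2 lost its call under 17 of 25 alternatives, and Acvr2b lost its call without replicate 2 of either stage. Of 26 Wnt genes 4 rose and 2 fell (median 0.15): the agonist Rspo2 (at least 3.86-fold), its receptor Lgr5 (at least 2.21-fold), the antagonist Dkk2 (at least 6.49-fold) and the ligand Wnt5a (1.98-fold) were higher, and the ectodermal ligand Wnt6 (2.15-fold) and the receptor Fzd7 (1.78-fold) lower. The called share of the Wnt list was 23.1%, beside 13.4% of all genes. The target gene Axin2 read 669 and 708 against 628 and 565 (−0.21, adjusted p = 0.645). Wnt6, Wnt5a and Fzd7 lost their calls without single trunk arrays, E9.5 replicate 1 in each case.

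In the Hedgehog list 2 of 10 were lower and none higher (median 0.01). The called share was 20% for Hedgehog, 13.6% for Notch, 18.2% for FGF and 21.4% for retinoic acid genes, beside 13.4% of all genes. The receptor and target gene Ptch1 read 5560 and 6512 against 3143 and 3189 (log2 −0.93 ± 0.17, adjusted p = 0.00352, 1.90-fold lower), and Hhip, another target, fell by at least 1.39-fold. Gli1, a further target, stayed near the median probe set (−0.03, adjusted p = 0.962). Of 22 Notch genes 3 rose and none fell (median 0.02): the neuronal Notch ligand relative Dner (at least 7.38-fold), Hes6 (at least 2.24-fold) and the receptor Notch3 (1.86-fold). The target genes Hes1 (1753 and 1278 against 429 and 2143), Hey1 (1545 and 1466 against 1181 and 2579) and Heyl (0.13, adjusted p = 0.815) did not pass, and for Hes1 and Hey1 the later arrays differed widely. Of 11 FGF genes, Fgf9 and Fgfr4 rose and none fell (median 0.01), and Fgf9 lay above the median probe set on 1 array only. Of 14 retinoic acid genes, Rxrg was higher and Crabp2 and Rbp4 lower (median 0.34). Rxrg lay below the median probe set at both stages. Hhip, Hes6, Notch3 and Rbp4 lost their calls without single trunk arrays, E11.5 replicate 2 in each case.

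Genes of ribosome assembly formed the list with most calls on the lower side. Of 32 tested genes 18 fell and none rose (median −0.79). Nop2, a nucleolar RNA methyltransferase gene, read 606 and 628 against 295 and 291 (log2 −1.07 ± 0.22, adjusted p = 0.00691, 2.11-fold lower), and Mybbp1a, a nucleolar protein gene, read 3192 and 3532 against 1722 and 2214 (−0.78 ± 0.16, adjusted p = 0.00648, 1.72-fold lower). The RNA polymerase I subunits Polr1b and Polr1a fell 2.13-fold and 1.85-fold, and the helicase gene Ddx21 2.09-fold. Nucleophosmin, Npm1, was at −0.25 (adjusted p = 0.0563) and nucleolin, Ncl, at −0.83 (adjusted p = 0.129). Myc, which is known to drive these genes, read 691 and 592 against 188 and 341 (−1.33 ± 0.28, adjusted p = 0.00796, 2.52-fold lower). Apart from Nop2 these calls depended on the arrays used. Without E9.5 replicate 1 the list's count was 4, without E9.5 replicate 2 it was 7, and without either E11.5 array it was 6. Myc lost its call without E9.5 replicate 1 or E11.5 replicate 1 (adjusted p up to 0.0729).

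In energy metabolism the calls lay in glycolysis. Of 21 tested genes of glycolysis and hypoxia 8 fell and 1 rose (median −0.33). The glucose transporter gene Slc2a3 read 3308 and 2767 against 1101 and 622 (log2 −1.87 ± 0.28, adjusted p = 0.000982, 3.66-fold lower) and its relative Slc2a1 3820 and 2471 against 1298 and 1340 (−1.22 ± 0.23, adjusted p = 0.0042, 2.33-fold lower). The lactate dehydrogenase subunits moved in opposite directions. Ldha, the subunit of glycolytic tissue, read 5394 and 5038 against 2802 and 2367 (−1.02 ± 0.21, adjusted p = 0.00801, 2.02-fold lower), and Ldhb, the subunit of oxidative tissue, 321 and 475 against 2219 and 2308 (2.53 ± 0.23, adjusted p = 4.92e-05, 5.79-fold higher). Neither gene's stages overlapped. The kinase genes Hk2 (1.94-fold), Pkm (1.85-fold) and Pfkl (2.12-fold), the mutase gene Pgam1 (1.63-fold) and the aldolase gene Aldoa (1.54-fold) also fell. Pfkl lost its call without any single one of the 4 arrays compared. The oxygen-sensing factor Hif1a was at 0.18 (adjusted p = 0.266). Of 40 tested respiratory chain genes none passed in limma (adjusted p of at least 0.178) and 1 had an unadjusted p below 0.05, with a median of 0.04 and differences between −0.30 (Ndufb3) and 0.52 (Cox7c). The count of lower glycolysis genes was 3 without E9.5 replicate 1 or E11.5 replicate 2, and Ldha was among those lost, while Slc2a3, Pgam1 and Ldhb kept their calls under every alternative run.

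Markers of some other cell types, neurons and epithelium among them, also differed between the stages, and those of others changed little. Their part in the results was not tested. Of 23 tested neuron genes 15 rose and none fell (median 2.13), and the list's summed signal went from 1908 and 2575 at E9.5 to 9941 and 14184 at E11.5. The microtubule protein gene Dcx of migrating neurons read 51.2 and 85.0 against 1552 and 2025 (log2 4.75 ± 0.33, adjusted p = 7.57e-06, at least 16.2-fold). The neurofilament gene Nefm read 61.7 and 188 against 1636 and 1859 (4.02 ± 0.47, adjusted p = 0.000232, at least 12.2-fold). The stathmin relative Stmn3 rose by at least 16-fold, the RNA-binding protein gene Elavl3 by at least 2.90-fold, and Isl1, a LIM-homeodomain gene of motor and sensory neurons, 4.38-fold. For the 15 higher neuron genes E11.5 replicate 2 was the higher of the later arrays in all but 1, whereas E11.5 replicate 1 was the higher in 31 of the 34 muscle genes. The neurogenic factor Neurod1 rose by at least 2.12-fold and Neurog2 did not pass (−0.91, adjusted p = 0.474). Leaving out single arrays gave 11 to 16 higher neuron genes. Among 10 genes of neural progenitors, the lipid-binding protein gene Fabp7 (58.1 and 155 against 1397 and 1004, at least 9.14-fold) and Nes (1.98-fold) rose and Sox2 fell (median 0.04). Of 7 genes of neural crest and glia, Erbb3 (2.86-fold) and Ngfr (2.24-fold) rose (median −0.25), while Sox10 lay near or below the median probe set (119 and 65.7 against 60.7 and 77.5). Nes, Ngfr and Sox2 lost their calls without E9.5 replicate 1, among other omissions.

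Of 16 tested epithelial genes 6 fell and none rose (median −1.29), and the summed signal went from 4176 and 3637 to 2468 and 1571. The keratin genes Krt8 (642 and 355 against 87.2 and 93.3, at least 4.36-fold) and Krt18 (320 and 220 against 56.9 and 59.6, at least 2.42-fold) of simple epithelia fell, and so did Epcam (1.87-fold) and Cdh1 (at least 2.09-fold), whereas the basal epidermal gene Trp63 did not pass (−0.72, adjusted p = 0.276). Without E9.5 replicate 1 the count was 2. Of 21 macrophage and leukocyte genes on the array only 7 were tested. Of these 7, 3 rose (median 1.37), Ctss, Coro1a and Laptm5, with a summed signal of 514 and 445 against 1131 and 937. Ctss and Coro1a each lay above the median probe set on 1 of the 4 arrays, and Laptm5 rose by at least 1.54-fold. Only 1 of the 3 passed without E9.5 replicate 1 or E11.5 replicate 1. The macrophage receptor gene Csf1r did not pass (169 and 96.4 against 240 and 303, adjusted p = 0.225). Of 17 endothelial genes 8 lay below the median probe set on all 4 arrays, and the summed signal was 2334 and 1887 against 2319 and 2646. The transcription factor gene Ets1, which is not limited to endothelium, read 1097 and 704 against 510 and 1289. Without it, a sum taken after its values were seen, the other 16 genes gave 1236 and 1183 against 1809 and 1356, and the stages did not overlap. Only Eng passed, below the median probe set on every array, and its other probe set went the other way (−0.19, adjusted p = 0.913). The called share of the endothelial list was 5.88%, beside 13.4% of all genes. Embryonic globin Hbb-y read 10988 and 9895 against 14075 and 10311 (0.21, adjusted p = 0.612). Of 7 erythroid genes only the transferrin receptor gene Tfrc passed (1.65-fold lower), a call lost without replicate 2 of either stage. The called share was 14.3%, beside 13.4% of all genes. Of 16 cardiac and pharyngeal factors on the array 7 were tested. Among these 7, Lhx2, Tcf21, Nkx2-5 and Tlx1 lay below the median probe set on all 4 arrays. The list median of 1.82 is the value of Tcf21 and so a difference between such dim signals. In this list 4 rose: Mef2c and Isl1, given above, Lhx2 and Tbx1 (66.1 and 73.1 against 140 and 196, at least 1.52-fold). The count was 2 without E11.5 replicate 2. No marker of these lists was listed at 0, which does not show that a cell type was present.

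**Figure D4:**
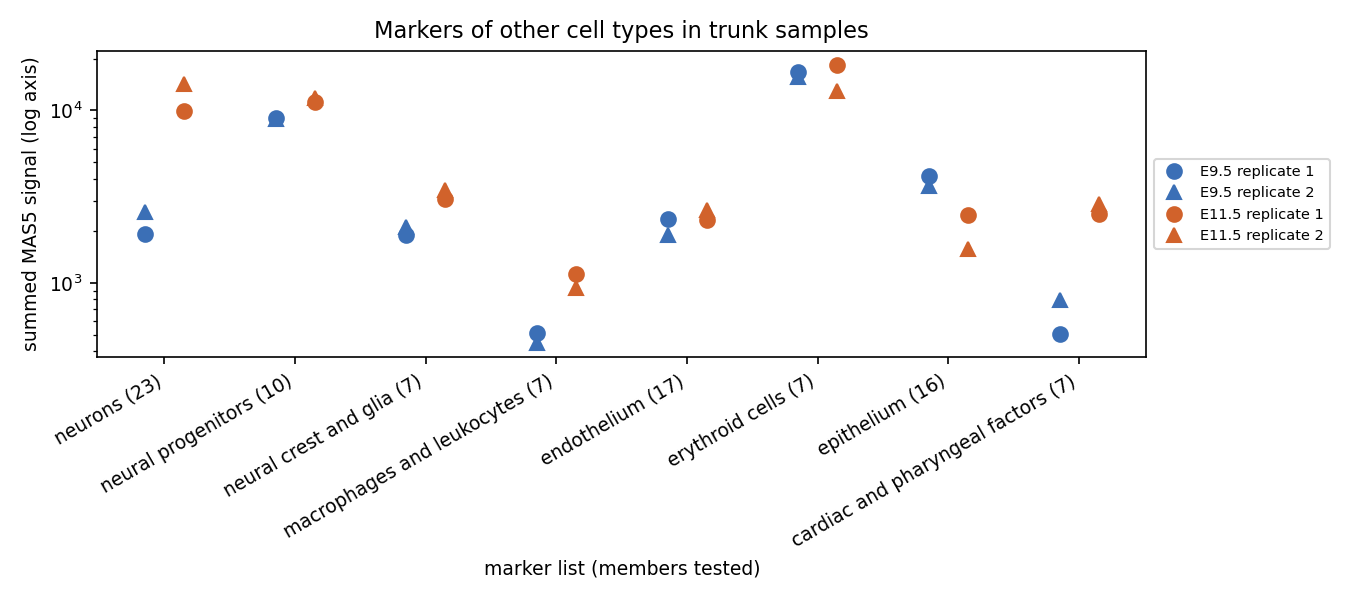
Summed MAS5 signal (vertical log axis) of the tested members of 8 marker lists (number in brackets) in each trunk array, blue for E9.5 and orange for E11.5, circles for replicate 1 and triangles for replicate 2. The neuron sum rises from 1908 and 2575 to 9941 and 14184 and the epithelium sum falls from 4176 and 3637 to 2468 and 1571, and the endothelium sums, Ets1 included, overlap.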

How the data were processed

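Total RNA of sorted cells was extracted with QIAzol, amplified and hybridised as biotinylated cRNA, per the labels' protocols. The deposited values are probe set intensities on a linear scale, made by the authors with MAS5 and Affymetrix Expression Console, per the submitters' processing notes. No source used here says whether a normalization followed MAS5. The 10th to 99th signal percentiles of the 12 arrays differed by at most log2 0.035, so log2 was taken without another normalization. Detection calls were not used here. Precision is limited by the number of arrays.

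Of 22690 probe sets, 64 controls, 691 with several genes and 1555 with no gene in the probe annotation were left out, and 20380 with 1 gene were kept. Symbols were checked through Entrez identifiers (20351 matched, 0 changed) against a GRCm38.p6 gene table. Probe sets needed a signal above the array median on at least 2 of 12 arrays (11739 passed), and the one with the highest mean stood for its gene. Of the called genes 398 had another tested probe set, 37 of opposite sign and 0 called the opposite way.

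Tests used limma 3.58.1 in R 4.3.3, with 1 mean for each of 6 groups, a variance trend with intensity (6 residual degrees of freedom, 5.87 from the prior), and two-sided p-values adjusted over 7722 genes. On simulated arrays with 200 changed genes in each of 5 runs, 56.2% of 2-fold and 94.4% of 4-fold changes were recovered. Of the calls 4.56% were false. The simulated noise was independent between genes, whereas genes of the real arrays moved together (E11.5 replicate 1 was the higher in 31 of 34 muscle genes). These shares therefore do not give the accuracy of the real calls. The labels do not say whether replicate numbers pair the samples, and the main test used no pairing. The deviations of replicate 1 from its group mean correlated at r = −0.299 between the stages. A correlation over genes cannot show how the samples were collected.

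The lists come from textbook knowledge. The samples compared, the lists and the alternatives were chosen with earlier results of these data known. Genes are named if they belong to a list, if they are among the 12 largest or 12 most negative log2 differences of called genes whose stages do not overlap and whose brighter stage lies above the median, or if they are Myf5, Myod1, Myog, Myf6, Pax3, Pax7 or Met. Myf6 was not tested. Lists are described by counts and medians, with no test of a list. Both cover tested members only, which could pass the filter through the stage where they were high. Promoter windows are RefSeq sequence. Alternatives changed the arrays in the fit, normalization, filter, probe set choice, variance model and pairing, and left out each array in turn.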

Additional observations from a re-analysis of the deposited data

How the results depend on the processing

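Between 708 and 1143 genes were called under the alternatives that kept the 4 trunk arrays, against 1038. The higher genes numbered 438 in place of 674 when the filter asked for signals above the 75th percentile, which tests 4368 genes. The lower genes numbered 213 in place of 364 with only the 4 trunk arrays in the fit. When each of the 12 arrays was left out in turn, the calls ranged from 434 to 1078, the higher genes from 339 to 719 and the lower genes from 95 to 374. Of the 1038 calls, 1024 were kept with quantile normalization and 420 without trunk E9.5 replicate 1. The share of higher genes among the calls was 64.5% with quantile normalization and 61.3% to 69.9% over all alternatives that kept these arrays. With the replicate number as a block (replicate block) 958 genes were called, 66.7% of them higher, and with crossed numbers, a pairing added after the data were seen, 1055. Of 149 called genes named in the text, 73 kept their call in all alternatives where they were tested and 65 lost it in at least 1 array omission. Their signs turned in 0 cases. Signals near or below the median probe set limit the folds: 287 of the calls have only a bound and 53 none. The self-test recovered 56.2% of 2-fold changes, so smaller changes that did not pass were not shown to be absent.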

Other observations

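Several genes outside the lists had large fitted log2 differences. Where the dimmer stage lay below the median probe set, only the bound on the fold is supported and the log2 value gives no order. The zinc finger transcription factor gene Bcl11b read 7.92 and 3.03 at E9.5 and 730 and 660 at E11.5 (log2 7.15 ± 0.38 by limma, adjusted p = 1.05e-06, at least 6.35-fold higher). Agtr2, the type 2 angiotensin receptor gene, read 8.94 and 2.86 against 577 and 582 (6.84 ± 0.74, adjusted p = 0.000143, at least 5.30-fold). Both were far below the median probe set on the early arrays and nearly level between the later ones. The serine protease gene Corin, known for processing natriuretic peptides, read 31.5 and 39.8 against 1039 and 1192 (4.97 ± 0.47, adjusted p = 6.26e-05, at least 10.2-fold). The nuclear factor gene Nfix, known from the fetal muscle programme, read 5.25 and 4.32 against 119 and 163 (4.87 ± 1.45, adjusted p = 0.0445, at least 1.27-fold). Nfix lost its call without any single trunk array of these stages, while Bcl11b and Corin kept theirs under every alternative and Agtr2 under all but the stricter filter.

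On the lower side, the arginase gene Arg1 read 1618 and 1070 at E9.5 and 118 and 74.5 at E11.5 (log2 −3.81 ± 0.81, adjusted p = 0.00915, at least 11.6-fold lower). Desmoplakin, Dsp, a desmosome protein gene, read 2547 and 2195 against 407 and 352 (−2.64 ± 0.26, adjusted p = 7.66e-05, 6.25-fold lower). The copper-binding plasma protein gene Cp fell by at least 4.67-fold, the acyltransferase gene Mogat2 by at least 4-fold and the junction adhesion gene Igsf5 by at least 1.66-fold. The stages did not overlap in any of these 5 genes. Arg1 lost its call without E9.5 replicate 1 or E11.5 replicate 2, Igsf5 without any single one of the 4 arrays, and Cp without probe sets suffixed _s, _x or _a. Mogat2 and Dsp kept theirs under every alternative run.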
